A study of Rattus norvegicus with 4 samples.

Results

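The Mrc1 or Cd163 macrophages of library 1 were 1065 cells, out of 9828 cells of that library that passed the depth and mitochondrial limits and 41444 cell barcodes in the whole series. They were chosen by a gate on UMIs (unique molecular identifiers, which count each captured transcript once). A cell needed at least 500 genes, at most 20% of its UMIs from mitochondrial genes, and at least 10 UMIs of C1qa, C1qb and C1qc together per 10000 of its UMIs. It also needed at least 2 UMIs of Mrc1 and Cd163 together, and more of these than of Trem2 and Gdf15 together. The cells they were set against, called Trem2 or Gdf15 macrophages here, were the 607 C1q-positive cells of the same library with at least 2 UMIs of Trem2 and Gdf15 and at least as many of these as of Mrc1 and Cd163. A further 151 C1q-positive cells met neither gate.

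The study profiled single cells of the sciatic nerve and the dorsal root ganglion of Sprague Dawley rats, 8 weeks or 1 day old, with droplet-based 3' sequencing. Its 4 labelled groups, Adult-SN, P1-SN, Adult-DRG and P1-DRG, had 1 library each, and the sex of the animals was not determined. No genotype or treatment differed between the groups. The labels describe a serum-containing culture of primary Schwann cells for all 4 but leave unstated if the cells sequenced here came from it, and how many animals gave a library. Nothing in the labels or files ties a library number to an age or a tissue, so library 1 is given no age or tissue here, and these cells cannot be placed in nerve or ganglion. With 1 library there was no replicate and no test: intervals below are 95% intervals for counting error alone, and a gene counts as past the threshold at a ratio of 2-fold.

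Macrophages that live in a tissue clear dying cells and debris, and C1q, the recognition part of the classical complement pathway, is among the proteins they make most. Mrc1 (CD206) is a mannose receptor that takes up glycoproteins, and Cd163 takes up haemoglobin bound to haptoglobin. Both are used as marks of macrophages along vessels and in connective tissue, where cells with Lyve1 and Folr2 are often told apart from cells rich in MHC class II. Trem2 is a lipid receptor that macrophages use in handling myelin and other lipid debris, and Gdf15 is a secreted cytokine of stressed cells.

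The gate took in 58.4% (56.1 to 60.7) of the 1823 C1q-positive cells of library 1, and the opposite gate took 33.3% (31.1 to 35.5). Of the members, 608 had UMIs of both Mrc1 and Cd163, 456 had Mrc1 only and 1 had Cd163 only. The sides of the gate were not exclusive. Of the members, 883 (82.9%) had a UMI of Trem2 or Gdf15, and 548 (90.3%) of the Trem2 or Gdf15 macrophages had a UMI of Mrc1 or Cd163. The gate therefore cut a range of ratios between the 2 pairs, and 116 of the Trem2 or Gdf15 macrophages (19.1%) were tied. The values that chose the cells are given as a description: Mrc1 stood at 1532 UMIs per 1000000 UMIs (CPM) in the Mrc1 or Cd163 macrophages and 649 CPM in the Trem2 or Gdf15 macrophages. Cd163 stood at 302 CPM in the Mrc1 or Cd163 macrophages and 87.0 CPM in the Trem2 or Gdf15 macrophages. Trem2 stood at 440 CPM in the Mrc1 or Cd163 macrophages and 760 CPM in the Trem2 or Gdf15 macrophages, and Gdf15 at 157 CPM in the Mrc1 or Cd163 macrophages and 699.8 CPM in the Trem2 or Gdf15 macrophages.

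Just inside the gate, the 81 members with exactly 2 UMIs of Mrc1 and Cd163 had 733 CPM of Lyve1 and 637 CPM of Folr2. Just outside it, the 46 cells with 1 such UMI and none of Trem2 or Gdf15 had 455 CPM of Lyve1 and 309 CPM of Folr2. The 143 members ahead by 1 UMI had 692 CPM of F13a1, and the 116 tied cells had 667 CPM. The 497 members ahead by 5 UMIs or more had 2039 CPM of F13a1. At the low edge of C1q, 32 members with 10 to 30 C1q UMIs per 10000 had a median of 309 fibroblast UMIs per 10000 (Col1a1, Col1a2, Col3a1 and Dcn), against 18.8 over all members. Only 6 cells with 5 to 10 C1q UMIs per 10000 otherwise met the gate.

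The label fitted the cells. Csf1r, the receptor that keeps macrophages alive, stood at 1158 CPM, Aif1 at 2041 CPM, Tyrobp at 2705 CPM, Cd68 at 993 CPM and Adgre1, the F4/80 antigen, at 336 CPM. In the 6679 fibroblasts of the library, which should lack these genes, none of the 5 passed 8.84 CPM. Fibroblasts were cells with at least 50 UMIs of Col1a1, Col1a2 and Dcn per 10000, under 10 of C1q per 10000 and no Ptprc UMI. That choice left out cells with more macrophage RNA, so the low levels were partly fixed by it. The fibroblast values here and below can therefore understate the background of free RNA. T cell genes Cd3d, Cd3e and Cd3g, B cell genes Ms4a1, Pax5 and Jchain, neuron genes Snap25, Nefl, Rbfox3 and Scn10a, and dendritic cell genes Xcr1, Ccr7, Batf3 and Siglech had no UMI in the members. Other genes of these lists did have UMIs: the whole lists summed to 29.7 CPM (neuron), 39.2 CPM (dendritic cell), 4.82 CPM (T or NK cell) and 1.67 CPM (B cell) in the members, against 15.7, 33.0, 2.30 and 1.53 CPM in the Trem2 or Gdf15 macrophages. Of these, Prph, a neuronal intermediate filament, stood at 20.5 CPM in the members and 8.05 CPM in the Trem2 or Gdf15 macrophages, and Zbtb46, a dendritic cell factor, had 13 UMIs in the members and 0 in the Trem2 or Gdf15 macrophages. The 7 fibroblast markers summed to 21581 CPM in the members and 26038 CPM in the Trem2 or Gdf15 macrophages. At 100 or more fibroblast UMIs per 10000 were 100 members (9.39%) and 68 Trem2 or Gdf15 macrophages (11.2%). Scrublet called 89 members (8.36%) and 56 Trem2 or Gdf15 macrophages (9.23%) doublets, and no cell was removed for it in the values below. The 8 Schwann cell markers summed to 166 CPM in the members and 165 CPM in the Trem2 or Gdf15 macrophages. The 6 lymphatic endothelial markers summed to 234 CPM in the members and 62.9 CPM in the Trem2 or Gdf15 macrophages, of which Pdpn gave 213 CPM in the members and 55.6 CPM in the Trem2 or Gdf15 macrophages. The 7 endothelial markers found summed to 107 CPM in the members and 62.1 CPM in the Trem2 or Gdf15 macrophages. The 6 perineurial markers summed to 85.6 CPM in the members and 159 CPM in the Trem2 or Gdf15 macrophages. The members had a median of 3951 UMIs, 1343 genes and 7.66% mitochondrial UMIs, against 3471 UMIs, 1215 genes and 6.08% in the Trem2 or Gdf15 macrophages. The part of these differences in the contrast was not tested.

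Of 8594 genes measured with at least 20 UMIs on one side, 543 (6.32%) were 2-fold or more higher and 123 (1.43%) were 2-fold or more lower in the Mrc1 or Cd163 macrophages than in the Trem2 or Gdf15 macrophages, and the median log2 ratio was 0.06. The summed UMIs were 4776204 in the Mrc1 or Cd163 macrophages and 2608061 in the Trem2 or Gdf15 macrophages. A gene thus reached the minimum of 20 UMIs at fewer CPM in the Mrc1 or Cd163 macrophages. The part of this in the counts of higher and lower genes was not tested. Both sides were cut from the same cells by 4 genes, so genes that go with those 4 had to differ, and the ratios describe what the gate separated. The gate's own genes and the mitochondrial genes are left out of these counts. In the gene lists below, a count close to these shares does not set a list apart from all genes.

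C6, a component of the complement membrane attack complex, had the highest ratio among genes with at least 100 UMIs. It stood at 215 CPM (202 to 228) in the Mrc1 or Cd163 macrophages and 23.8 CPM (18.2 to 30.5) in the Trem2 or Gdf15 macrophages, a log2 ratio of 3.17 (2.80 to 3.57). Rnase2, a secreted ribonuclease, stood at 230.3 CPM (217 to 244) in the Mrc1 or Cd163 macrophages and 33.7 CPM (27.1 to 41.6) in the Trem2 or Gdf15 macrophages. Cd209f, a C-type lectin of the DC-SIGN family, stood at 339 CPM (323 to 356) in the Mrc1 or Cd163 macrophages and 53.3 CPM (44.8 to 62.9) in the Trem2 or Gdf15 macrophages. These 3 genes were taken from the 15 highest ratios, so that their intervals lie apart on the 2 sides follows from the choice. Their sums came from a minority of cells. Unthinned, C6 was in 28.5% of the Mrc1 or Cd163 macrophages and 5.44% of the Trem2 or Gdf15 macrophages. Rnase2 was in 11.5% of the former and 2.14% of the latter, and Cd209f in 13.8% of the former and 2.64% of the latter. The intervals do not cover this spread between cells. Fcna, ficolin A, which starts the lectin pathway of complement, was the most abundant of the 15 highest genes. It stood at 3227 CPM (3176 to 3278) in the Mrc1 or Cd163 macrophages and 564 CPM (536 to 594) in the Trem2 or Gdf15 macrophages, a log2 ratio of 2.52 (2.44 to 2.59). With every cell thinned to 2000 UMIs, which left out 84 members, 41 Trem2 or Gdf15 macrophages and 210 fibroblasts, Fcna was detected in 64.9% of the members, 30.2% of the Trem2 or Gdf15 macrophages and 1.17% of the fibroblasts. Unthinned, it was in 70.0% of the Mrc1 or Cd163 macrophages and 44.2% of the Trem2 or Gdf15 macrophages.

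The other 11 of the 15 highest genes had log2 ratios of 3.12 to 2.21. They were Hpse (heparanase, 3.12), Trem1 (an activating myeloid receptor, 2.78), Crabp2 (a carrier of retinoic acid, 2.65), Gcnt1 (an enzyme that branches O-glycans, 2.64) and Prkcz (an atypical protein kinase C, 2.50). They went on with Erbb3 (a neuregulin receptor best known in Schwann cells, 2.45), Rasgrp3 (an activator of Ras proteins, 2.45), Calml4 (2.32), Gprc5c (2.28), Usp30 (a mitochondrial deubiquitinase, 2.24) and Rarres1 (a retinoic acid-responsive gene, 2.21). Rarres1 also stood at 47.4 CPM in fibroblasts, against 304 CPM in the Mrc1 or Cd163 macrophages and 65.6 CPM in the Trem2 or Gdf15 macrophages.

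**Figure D1:**
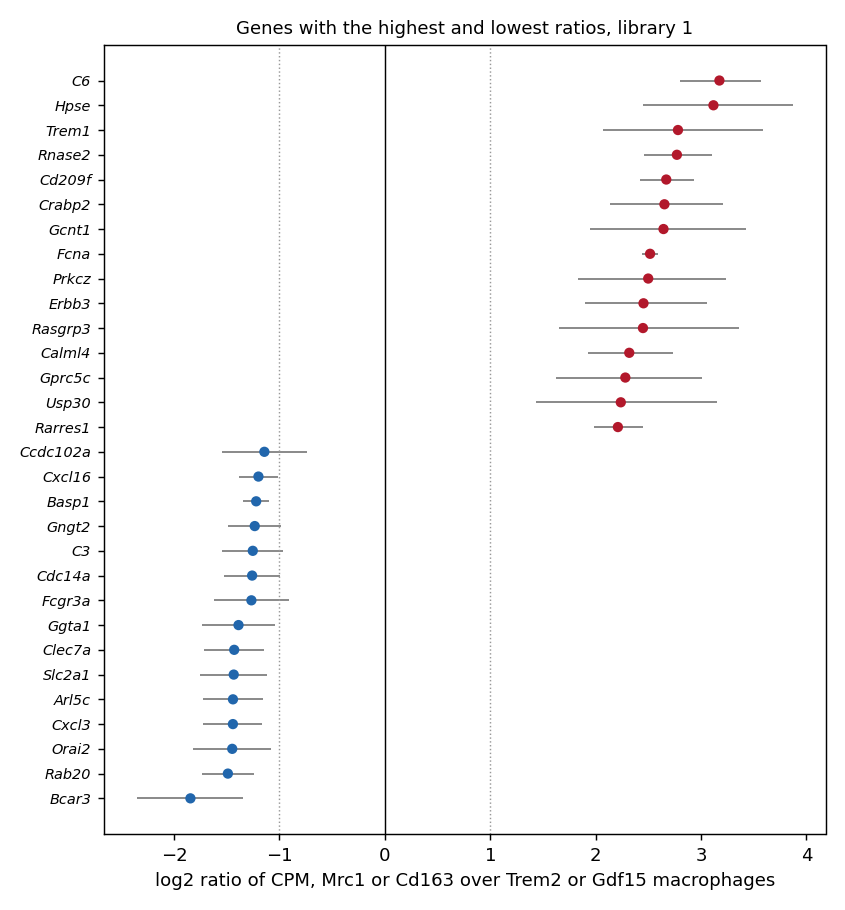
Log2 ratio of CPM, Mrc1 or Cd163 macrophages over Trem2 or Gdf15 macrophages of library 1, for the 15 genes with the highest and the 15 with the lowest ratios (points, with 95% counting intervals as bars). C6 stands at 3.17 at one end and Bcar3 at -1.84 at the other.

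At the other end, Bcar3, a signalling adaptor, stood at 10.9 CPM (8.13 to 14.3) in the Mrc1 or Cd163 macrophages and 39.1 CPM (31.9 to 47.5) in the Trem2 or Gdf15 macrophages, a log2 ratio of -1.84 (-2.36 to -1.35). Slc2a1, the glucose transporter GLUT1, stood at 29.9 CPM (25.2 to 35.3) in the Mrc1 or Cd163 macrophages and 80.9 CPM (70.4 to 92.6) in the Trem2 or Gdf15 macrophages, and it is also a perineurial marker. Clec7a, the beta-glucan receptor dectin-1, stood at 36 CPM (30.8 to 41.8) in the Mrc1 or Cd163 macrophages and 97.0 CPM (85.4 to 109.7) in the Trem2 or Gdf15 macrophages. These 3 genes were low on both sides in absolute terms. Basp1 was the most abundant of the 15 lowest genes, at 193 CPM in the Mrc1 or Cd163 macrophages and 451 CPM in the Trem2 or Gdf15 macrophages. The rest were Rab20 (a small GTPase, -1.49), Orai2 (a calcium channel subunit, -1.45), Cxcl3 (a neutrophil chemokine, -1.44), Arl5c (-1.44), Ggta1 (a galactosyltransferase, -1.39), Fcgr3a (an activating Fc receptor, -1.27), Cdc14a (a phosphatase, -1.26), C3 (-1.25), Gngt2 (a G protein subunit, -1.23), Cxcl16 (-1.20) and Ccdc102a (-1.14). The log2 ratios of all 15 lay between -1.84 and -1.14.

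Genes known from resident macrophages of connective tissue were the list with the most genes past 2-fold. Of its 21 measured genes, 14 were 2-fold or more higher in the Mrc1 or Cd163 macrophages and none was 2-fold or more lower, with a median log2 ratio of 1.14. Over all genes 6.32% were 2-fold or more higher and 1.43% lower, with a median of 0.06. Its summed level was 17619 CPM in the Mrc1 or Cd163 macrophages and 7562 CPM in the Trem2 or Gdf15 macrophages. Lyve1, a hyaluronan receptor, stood at 1864 CPM (1826 to 1903) in the Mrc1 or Cd163 macrophages and 738 CPM (706 to 772) in the Trem2 or Gdf15 macrophages. Thinned, it was detected in 83.3% of the Mrc1 or Cd163 macrophages, 64.3% of the Trem2 or Gdf15 macrophages and 0.526% of the fibroblasts. F13a1, the A subunit of coagulation factor XIII, stood at 1474 CPM (1440 to 1509) in the Mrc1 or Cd163 macrophages and 436 CPM (411 to 462) in the Trem2 or Gdf15 macrophages. Folr2, a folate receptor, stood at 1500 CPM (1465 to 1535) in the Mrc1 or Cd163 macrophages and 740 CPM (707 to 773) in the Trem2 or Gdf15 macrophages. All 3 were thus common on both sides and more abundant among the members. Ccl24, an eosinophil chemoattractant, had a log2 ratio of 2.12 (476 CPM in the Mrc1 or Cd163 macrophages and 110 CPM in the Trem2 or Gdf15 macrophages), and Hpgds, which makes prostaglandin D2, had 1.85. Siglec1, a sialic acid receptor, had 1.57, Ltc4s, a leukotriene synthase, had 1.43 and Fcgrt, the neonatal Fc receptor, had 1.07. Pf4 (0.66), Clec10a (0.73) and Igf1 (0.51) stayed under 2-fold.

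Complement showed genes at both ends. Of 15 measured genes, 4 were 2-fold or more higher (C6, Cfd, Cfp and C3ar1) and 1 was 2-fold or more lower (C3). Cfd, factor D of the alternative pathway, stood at 4742 CPM (4680 to 4804) in the Mrc1 or Cd163 macrophages and 1175 CPM (1134 to 1218) in the Trem2 or Gdf15 macrophages, and Cfp, properdin, at 274 CPM in the Mrc1 or Cd163 macrophages and 105 CPM in the Trem2 or Gdf15 macrophages. C3, the central component of the pathway, stood at 37.5 CPM (32.2 to 43.4) in the Mrc1 or Cd163 macrophages and 89.3 CPM (78.2 to 101.6) in the Trem2 or Gdf15 macrophages. The C1q genes served the gate and are not counted.

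Uptake and clearance genes were split as well. Of 14 measured scavenger and phosphatidylserine receptors, Colec12 (1.14) and Stab1 (1.03) were 2-fold or more higher and Cxcl16 (-1.20) was 2-fold or more lower. Mertk, a receptor for dying cells, had 0.93. Among 13 genes of iron and haem handling, the biliverdin reductases Blvrb (1.70) and Blvra (1.66) were 2-fold or more higher and the iron transporter Slc11a2 (-1.09) was 2-fold or more lower. Hmox1, haem oxygenase, which makes the biliverdin, stood at 1028 CPM (999 to 1057) in the Mrc1 or Cd163 macrophages and 1579 CPM (1531 to 1628) in the Trem2 or Gdf15 macrophages. Its log2 ratio, -0.62, was under 2-fold. Among 32 lysosomal proteins, the proteases Ctsc (1.14) and Ctsb (1.03) were 2-fold or more higher and none was 2-fold or more lower, a share close to the 6.32% of all genes. Of 23 genes of lipid-associated macrophages, Ctsb was the 1 gene 2-fold or more higher and Clec7a the 1 gene 2-fold or more lower, with a median of -0.38. Apoe, the lipid carrier, stood at 18151 CPM in the Mrc1 or Cd163 macrophages and 11419 CPM in the Trem2 or Gdf15 macrophages, and Fabp5, a fatty acid-binding protein, at 218 CPM in the Mrc1 or Cd163 macrophages and 415 CPM in the Trem2 or Gdf15 macrophages.

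The signalling lists held genes past 2-fold in both directions, beside 6.32% of all genes 2-fold or more higher and 1.43% 2-fold or more lower. Of 16 chemokines, 3 were 2-fold or more higher (Ccl24, Ccl5 and Ccl11) and 3 were 2-fold or more lower (Ccl4, Cxcl16 and Cxcl3). Ccl5 had 28 UMIs in the Mrc1 or Cd163 macrophages and 1 in the Trem2 or Gdf15 macrophages, and Ccl11 had 118 in the Mrc1 or Cd163 macrophages and 17 in the Trem2 or Gdf15 macrophages. The neutrophil chemokine Cxcl2 stood at 2207 CPM (2165 to 2249) in the Mrc1 or Cd163 macrophages and 4332 CPM (4253 to 4413) in the Trem2 or Gdf15 macrophages, a log2 ratio of -0.97. The monocyte chemokine Ccl2 stood at 2071 CPM in the Mrc1 or Cd163 macrophages and 1551 CPM in the Trem2 or Gdf15 macrophages, with 1291 CPM in fibroblasts. Of 13 cytokines, Il10 and Tnfsf13 were 2-fold or more higher and Csf1, Tnfsf13b and Il1rn were 2-fold or more lower, Il10 on 21 UMIs in the Mrc1 or Cd163 macrophages and 3 in the Trem2 or Gdf15 macrophages. Il1b, the inflammatory cytokine that Il1rn antagonises, stood at 135 CPM (125 to 146) in the Mrc1 or Cd163 macrophages and 189 CPM (172 to 206) in the Trem2 or Gdf15 macrophages. Of 21 receptors for chemoattractants and cytokines, Ccr1 (1.07) was 2-fold or more higher and Il1r2 (-1.05) and Csf2rb (-1.49) were 2-fold or more lower. Among 24 innate sensors and C-type lectins, 4 were 2-fold or more higher, with Tlr7, a sensor of single-stranded RNA, at 1.08, and 3 were 2-fold or more lower, with Clec7a at -1.43. Of 5 Fc receptors, Fcgrt was 2-fold or more higher and Fcgr3a was 2-fold or more lower, and Fcgr2b, the inhibitory receptor, had 0.86.

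Of 17 interferon-stimulated genes, 7 were 2-fold or more higher in the Mrc1 or Cd163 macrophages and none was 2-fold or more lower, with a median of 0.91. None of the 7 passed 43.8 CPM in the Mrc1 or Cd163 macrophages. Mx1, an antiviral GTPase, stood at 43.8 CPM (38.0 to 50.1) in the Mrc1 or Cd163 macrophages and 20.3 CPM (15.2 to 26.6) in the Trem2 or Gdf15 macrophages, and Ifit3 at 31.8 CPM (27.0 to 37.3) in the Mrc1 or Cd163 macrophages and 8.44 CPM (5.29 to 12.8) in the Trem2 or Gdf15 macrophages. The most abundant gene of the list, Ifi27, was in the fibroblasts at 924 CPM, against 615 CPM in the Mrc1 or Cd163 macrophages and 359 CPM in the Trem2 or Gdf15 macrophages.

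Of 34 transcription factors, Etv5 (1.16) was 2-fold or more higher and none was 2-fold or more lower. Cebpb, which drives inflammatory genes, stood at 1469 CPM (1435 to 1504) in the Mrc1 or Cd163 macrophages and 2840 CPM (2775 to 2905) in the Trem2 or Gdf15 macrophages, and the NF-kappaB subunits Rel (-0.91) and Nfkb1 (-0.84) had the same sign. Maf (0.82), a factor of macrophage identity, had the opposite sign. Of 17 genes of glycolysis and hypoxia, 3 were 2-fold or more lower (Slc2a1, Slc16a3 and Pkm) and none was 2-fold or more higher. Of 13 genes of the integrated stress response, 2 were 2-fold or more lower (Slc7a5 and Slc7a11) and none was 2-fold or more higher. Of 19 genes in the growth factor list, Pdgfc and Tgfbi were 2-fold or more higher and Vegfb was 2-fold or more lower. Tgfbi is named for its induction by TGF-beta and is not itself a growth factor. It stood at 990 CPM in the Mrc1 or Cd163 macrophages, 474 CPM in the Trem2 or Gdf15 macrophages and 498 CPM in fibroblasts. Among 16 oxidative stress genes, Cat (1.10) was 2-fold or more higher and Slc7a11 (-1.27) was 2-fold or more lower. Of 15 genes of microglia and endoneurial macrophages, Gpr34 (1.13) and P2ry13 (1.04) were 2-fold or more higher and Cadm1 (-1.28) was 2-fold or more lower. In the lists of 21 immediate early genes, 13 cell cycle genes, 12 monocyte genes and 14 matrix proteases and inhibitors, 1 gene each was 2-fold or more higher (Btg2, Cenpf, Emilin2 and Adam9) and none was 2-fold or more lower. None of 11 heat shock genes passed 2-fold in either direction.

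**Figure D2:**
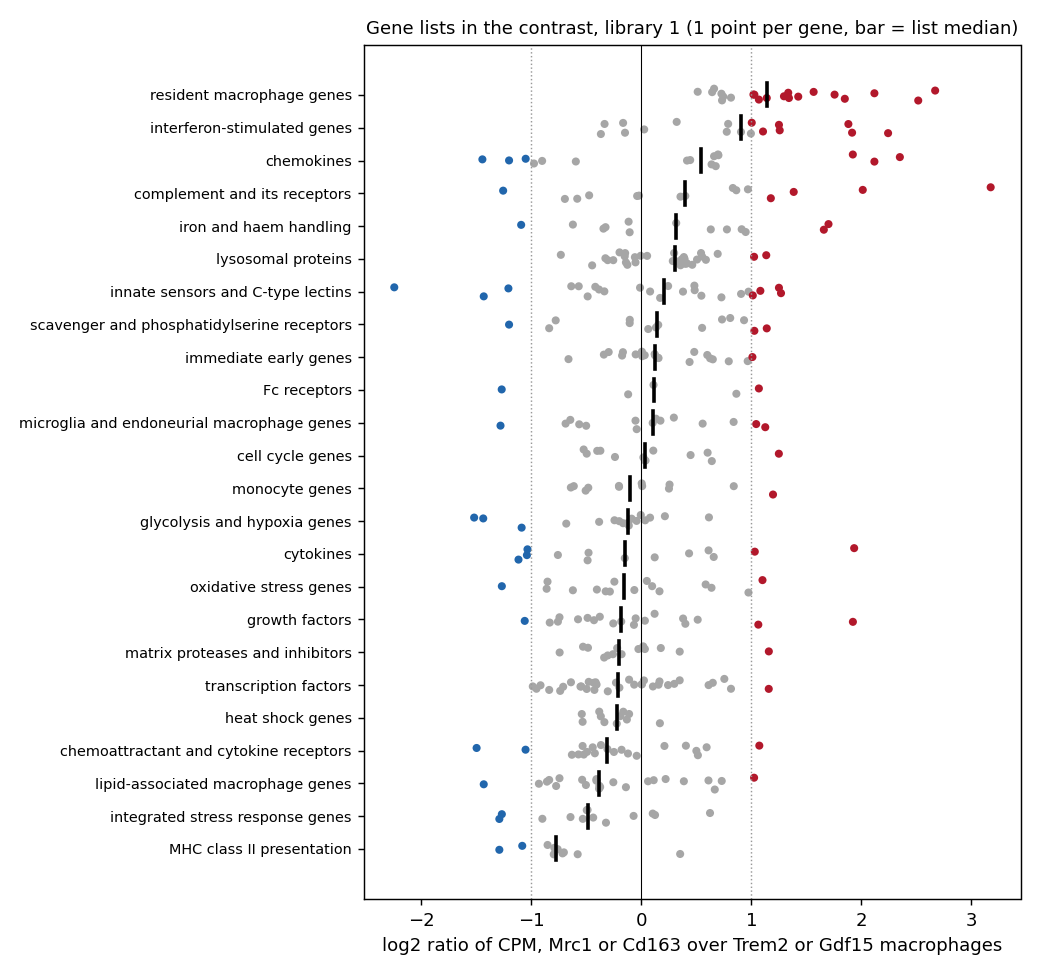
Log2 ratio of CPM, Mrc1 or Cd163 macrophages over Trem2 or Gdf15 macrophages of library 1, with 1 point per measured gene and 1 row per gene list (bar, list median). The resident macrophage genes have the highest median (1.14) and the MHC class II genes the lowest (-0.77).

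MHC class II, the complex that shows peptides to helper T cells, was the list with the lowest median, -0.77 over 10 measured genes. Of these, 2 were 2-fold or more lower in the Mrc1 or Cd163 macrophages (Cd40 and RT1-DOb) and none was 2-fold or more higher. The summed level of the list was 22263 CPM in the Mrc1 or Cd163 macrophages and 38271 CPM in the Trem2 or Gdf15 macrophages. In the rat the class II genes are those of the RT1-B and RT1-D loci, and Cd74 encodes the invariant chain that escorts the complex. RT1-Da stood at 5358 CPM (5293 to 5424) in the Mrc1 or Cd163 macrophages and 9657 CPM (9538 to 9777) in the Trem2 or Gdf15 macrophages, a log2 ratio of -0.85. Cd74 stood at 8492 CPM (8410 to 8575) in the Mrc1 or Cd163 macrophages and 14361 CPM (14216 to 14507) in the Trem2 or Gdf15 macrophages, a log2 ratio of -0.76. RT1-Db1, RT1-Ba and RT1-Bb had log2 ratios of -0.79, -0.79 and -0.70. The 5 genes thus had ratios within a narrow range of each other, between -0.85 and -0.70.

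Genes of class II presentation are known to be switched on together through promoter elements named the X and Y boxes, which bind the RFX and NF-Y complexes. Because the 5 genes had ratios in such a narrow range, the 130 bases before the annotated start of the 4 RT1 genes are shown, from RefSeq on the build GRCr8, 5' to 3' on the strand of the gene, with the Y box letters CTGATTGG and the X box core letters TAGCAAC in capitals. They lie at chr20:4515285-4515414 on the plus strand for RT1-Da, chr20:4560163-4560292 on the minus strand for RT1-Db1, chr20:4576927-4577056 on the plus strand for RT1-Ba and chr20:4604119-4604248 on the minus strand for RT1-Bb.
RT1-Da: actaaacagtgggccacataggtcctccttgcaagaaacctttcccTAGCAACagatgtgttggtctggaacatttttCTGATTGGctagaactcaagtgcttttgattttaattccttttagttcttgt
RT1-Db1: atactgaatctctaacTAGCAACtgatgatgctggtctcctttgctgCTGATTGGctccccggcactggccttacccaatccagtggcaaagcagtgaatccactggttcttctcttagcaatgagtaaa
RT1-Ba: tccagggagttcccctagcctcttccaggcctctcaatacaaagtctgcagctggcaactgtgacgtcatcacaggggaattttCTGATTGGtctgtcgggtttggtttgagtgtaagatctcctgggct
RT1-Bb: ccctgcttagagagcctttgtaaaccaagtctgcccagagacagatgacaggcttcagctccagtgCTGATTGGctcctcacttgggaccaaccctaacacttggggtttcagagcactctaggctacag
Searched on both strands of the 250 bases before the start, the Y box letters were in 4 of the 5 class II genes and in 1068 of 33469 windows of that length (3.19%). The X box core letters were in 3 of the 5 (Cd74, RT1-Da and RT1-Db1) and in 965 windows (2.88%). In RT1-Da and RT1-Db1 both were found, with the starts of the motifs 32 bases apart in RT1-Da and 31 bases apart in RT1-Db1, so that no match overlapped another in these genes. A match is a description of letters, and a window with no match says nothing of what binds there.

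The lower class II level of the members came with fewer class II-rich cells. The 5 genes (RT1-Da, RT1-Db1, RT1-Ba, RT1-Bb and Cd74) reached 100 UMIs per 10000 in 446 of 1065 Mrc1 or Cd163 macrophages (41.9%, 38.9 to 44.9) and 426 of 607 Trem2 or Gdf15 macrophages (70.2%, 66.4 to 73.8). Under 10 per 10000 were 504 Mrc1 or Cd163 macrophages (47.3%) and 98 Trem2 or Gdf15 macrophages (16.1%). Fibroblasts, with a median of 0.610 per 10000, reached 100 in 18 of 6679 cells (0.270%). The members were thus spread over a low and a high range, with 91 of them between 50 and 200 per 10000, close to the chosen limit.

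**Figure D3:**
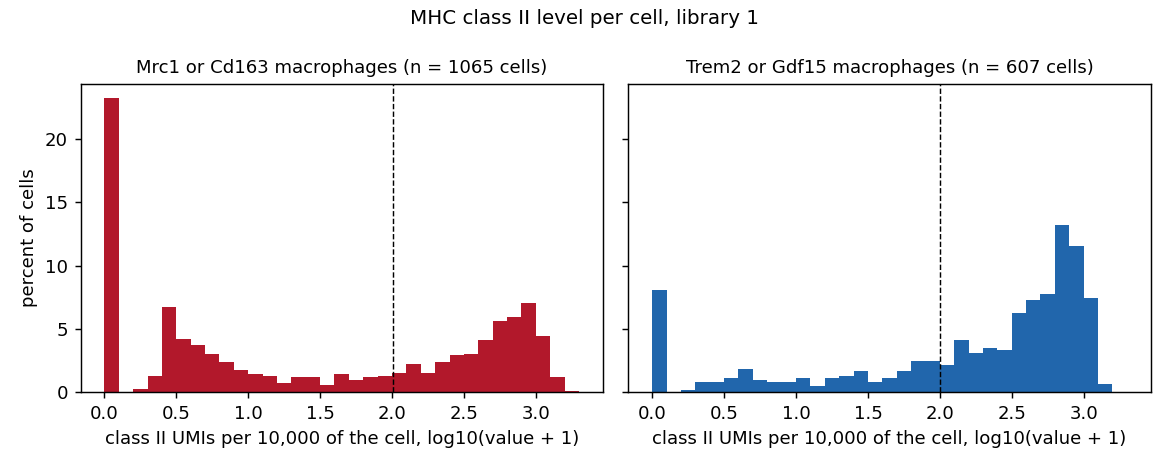
Percent of cells by MHC class II UMIs per 10000 (log10 of the value plus 1), for the 1065 Mrc1 or Cd163 macrophages and the 607 Trem2 or Gdf15 macrophages of library 1, with a dashed line at 100 per 10000. Members form a low and a high group, with 41.9% of them past the line, against 70.2% of the Trem2 or Gdf15 macrophages.

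The members varied in class II among themselves. They were ordered by their class II level and cut into 3 sets of 355 cells, with medians of 0, 16.5 and 696 class II UMIs per 10000. These sets hold the same members as the contrast above, so their ratios share cells with it and are not independent of it. Of 6601 genes measured, 648 (9.82%) were 2-fold or more higher and 1177 (17.8%) were 2-fold or more lower in the highest set than in the lowest, with a median log2 ratio of -0.24. The lowest, middle and highest sets also differed in depth, with medians of 4737, 3736 and 3356 UMIs per cell, and in the mitochondrial share, with medians of 9.22%, 7.77% and 6.35%. Their fibroblast UMIs had medians of 18, 20.3 and 18.7 per 10000. The levels below are sums of UMIs, so the 100 members (9.39%) with 100 or more fibroblast UMIs per 10000 can weigh in them beyond these medians. The part of depth, of the mitochondrial share and of fibroblast RNA in these differences was not tested.

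Resident macrophage genes were lower where class II was high, though most cells of the highest set (81.1%) still had a Lyve1 UMI. Of 21 measured, 16 were 2-fold or more lower in the highest set and none was 2-fold or more higher, with a median of -1.63. From the lowest set through the middle to the highest, Lyve1 stood at 2709, 1725 and 914 CPM and Folr2 at 2172, 1345 and 797 CPM. F13a1 stood at 2224, 1393 and 580.0 CPM and Fcna at 5876, 2646 and 423 CPM. Steeper still were Cd209f, at 686, 233 and 7.42 CPM, Rnase2, at 499, 122 and 5.93 CPM, and C6, at 417, 160.3 and 12.6 CPM. The last 3 rested on 10, 8 and 17 UMIs in the highest set. These 3 genes were thus at low levels in the members rich in class II.

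Of the genes that chose the members, Mrc1 stood at 1650, 1524 and 1386 CPM from the lowest to the highest set, a log2 ratio of -0.25 (-0.34 to -0.17). Cd163 stood at 415, 294 and 161 CPM, a log2 ratio of -1.37 (-1.59 to -1.15). Every member needed UMIs of this pair, and 456 had Mrc1 alone, so the gate itself bears on these levels. Trem2 stood at 479, 459 and 366 CPM and Gdf15 at 94.0, 163 and 234 CPM.

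The members rich in class II had higher levels of a separate set of genes. Bcl2a1, an anti-apoptotic protein of activated leukocytes, stood at 164, 666 and 1931 CPM from the lowest to the highest set, a log2 ratio of 3.56 (3.38 to 3.74). Lyz2, lysozyme, stood at 3881, 9561 and 19650 CPM, and Cebpb at 727, 1428 and 2502 CPM. Il1b stood at 49.8, 127 and 259 CPM and its antagonist Il1rn at 2.80, 16.5 and 98.6 CPM. These 5 genes all stood highest in the class II-rich set. Napsa, an aspartic protease, had a log2 ratio of 6.01 (4.44 to 8.31) on 3 UMIs in the lowest set, and Runx3, a transcription factor of leukocytes, had 3.71 (2.99 to 4.52). Among 29 transcription factors, 11 were 2-fold or more higher and 4 were 2-fold or more lower in the highest set. Among 16 interferon-stimulated genes, 12 were 2-fold or more lower and none was 2-fold or more higher, and Mx1 stood at 64.3, 43.3 and 17.1 CPM from lowest to highest. Of 14 complement genes, 9 were 2-fold or more lower and 1 was 2-fold or more higher, C3, at 5.04, 47.6 and 68.2 CPM. Of 10 matrix proteases and inhibitors, 7 were 2-fold or more lower, among them Sparc, at 4599, 6638 and 1101 CPM, which stood at 27767 CPM in fibroblasts.

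**Figure D4:**
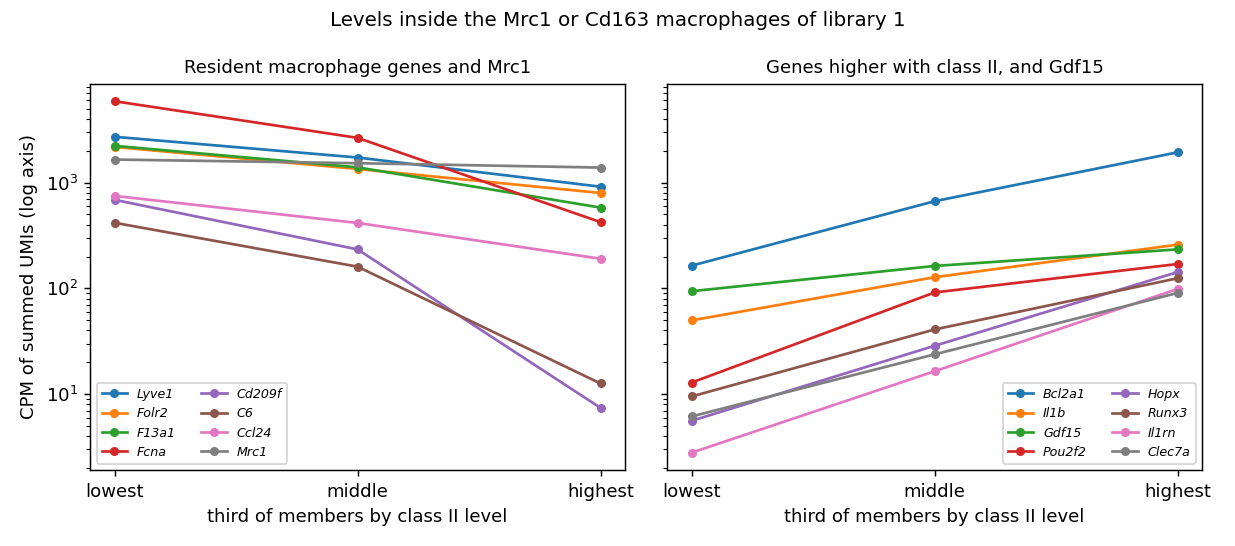
CPM of summed UMIs (log axis) in the 355 members with the lowest, the middle 355 and the 355 with the highest class II level of library 1, 1 line per gene. Fcna goes with low class II (5876, 2646 and 423 CPM) and Bcl2a1 with high class II (164, 666 and 1931 CPM).

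The same members were also split by Lyve1. Lyve1 fell as class II rose over the sets above, so this split is not independent of them. A Lyve1 UMI was present in 959 members and absent in 106, whose median depths were 4073 and 3057 UMIs. The part of depth in this split was not tested. Of 8385 genes measured, 634 (7.56%) were 2-fold or more higher and 462 (5.51%) were 2-fold or more lower in members with the UMI. Cfd stood at 5108 CPM in members with Lyve1 and 630.0 CPM in members without it, and Fcna at 3497 CPM in members with Lyve1 and 197 CPM in members without it. RT1-Da stood at 4763 CPM in members with Lyve1 and 12048 CPM in members without it. The chemokine Ccl4 stood at 117 CPM in members with Lyve1 and 640.3 CPM in members without it. The latter level rested on 250 UMIs in 17.9% of the members without Lyve1. Members without a Lyve1 UMI were thus richer in class II and poorer in Cfd and Fcna, while their Ccl4 sum came from a minority of them.

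The cells were also split at 100 class II UMIs per 10000. The contrast between the gates was then smaller for the genes given here, except Cebpb, Il1b and RT1-Da among cells under 100. Only the cells at 100 or more were alike in class II, with RT1-Da at a log2 ratio of 0.04 (0.01 to 0.06). Among cells under 100, RT1-Da stood at 143 CPM in the Mrc1 or Cd163 macrophages and 424 CPM in the Trem2 or Gdf15 macrophages. Its log2 ratio there was -1.57 (-1.78 to -1.36), so those ratios are not at equal class II levels. Among cells at 100 or more class II UMIs per 10000, Fcna stood at 546 CPM in 446 Mrc1 or Cd163 macrophages and 166 CPM in 426 Trem2 or Gdf15 macrophages, a log2 ratio of 1.72 (1.53 to 1.91). Among cells under 100, it stood at 4858 CPM in 619 Mrc1 or Cd163 macrophages and 1504 CPM in 181 Trem2 or Gdf15 macrophages, a log2 ratio of 1.69 (1.61 to 1.78). Fcna thus kept a ratio above 2-fold in both sets, below the 2.52 over all cells. Lyve1 had 0.70 (0.59 to 0.81) in the class II-rich cells and 1.15 (1.04 to 1.25) in the others. Cebpb had -0.41 (-0.47 to -0.35) in the class II-rich cells and -1.26 (-1.34 to -1.17) in the others, and Il1b had 0.32 (0.11 to 0.55) in the class II-rich cells and -1.40 (-1.68 to -1.12) in the others. Il1b was thus higher in the Mrc1 or Cd163 macrophages among class II-rich cells and lower among the others. C6 had 1.07 (0.14 to 2.06) in the class II-rich cells, on 31 UMIs in the Mrc1 or Cd163 macrophages and 15 in the Trem2 or Gdf15 macrophages, and 2.47 (2.04 to 2.92) in the others. Erbb3 had 0.02 (-1.26 to 1.30) in the class II-rich cells, on 12 UMIs in each side, and 2.10 (1.39 to 2.90) in the others. The median of the resident macrophage genes was 0.50 in the class II-rich cells and 1.02 in the others.

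The same gate found few cells in the other libraries: 50 in library 2, 58 in library 3 and 106 in library 4. They were 26.9% (20.7 to 33.9), 45.0% (36.2 to 54.0) and 62.4% (54.6 to 69.7) of 186, 129 and 170 C1q-positive cells. Over all cells past the limits, the gate held 10.8% (10.2 to 11.5) in library 1 and between 0.593% and 1.25% in libraries 2 to 4. Library 1 thus held most of these cells in the series. The libraries had 74425958 to 97572003 UMIs over 10087 to 10559 barcodes, and members of library 4 were the deepest, with a median of 14918 UMIs. Barcode letters of 12 members also occurred in another library, as did those of 96 of all 10542 barcodes of library 1.

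The levels of selected genes were not even between cells of the same gate in library 1 and in the other libraries. Mrc1 stood at 1532 CPM in library 1 and at 1080, 1190 and 1979 CPM in libraries 2, 3 and 4. Lyve1 stood at 1864 CPM in library 1 and at 477, 561 and 2053 CPM in libraries 2, 3 and 4. Cd163 stood at 302 CPM in library 1 and at 80.4, 809 and 1055 CPM in libraries 2, 3 and 4, so its highest level was not in library 1. Mrc1 and Cd163 chose the cells in every library by a minimum of 2 UMIs, so the gate and the depth bear on their levels. Members had medians of 3951, 2950, 4024 and 14918 UMIs in libraries 1, 2, 3 and 4. The part of gate and depth in these levels was not tested. Fcna stood at 3227 CPM in library 1 and at 91.9, 327 and 818 CPM in libraries 2, 3 and 4. Folr2 stood at 1500 CPM in library 1 and at 523, 317 and 388 CPM in libraries 2, 3 and 4. F13a1 stood at 1474 CPM in library 1 and at 45.9, 369 and 1155 CPM in libraries 2, 3 and 4. Cd209f had 1620 UMIs in library 1, none in libraries 2 and 3 and 2 in library 4, and 3 UMIs, the limit used here for a count of 0, would be 17.2 CPM in library 2 and 9.15 CPM in library 3. RT1-Da stood at 5358 CPM in library 1 and at 1596, 265 and 73.6 CPM in libraries 2, 3 and 4. Class II reached 100 per 10000 in 7 of 50 members in library 2, 2 of 58 in library 3 and 4 of 106 in library 4. The class II-rich members were thus largely cells of library 1. The 4 erythroid markers summed to 97.4 CPM in the members of library 1 and to 65637, 13909 and 48066 CPM in those of libraries 2, 3 and 4, and their part in these levels was not tested. Libraries differ by age or tissue, which cannot be told apart from the library here.

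**Figure D5:**
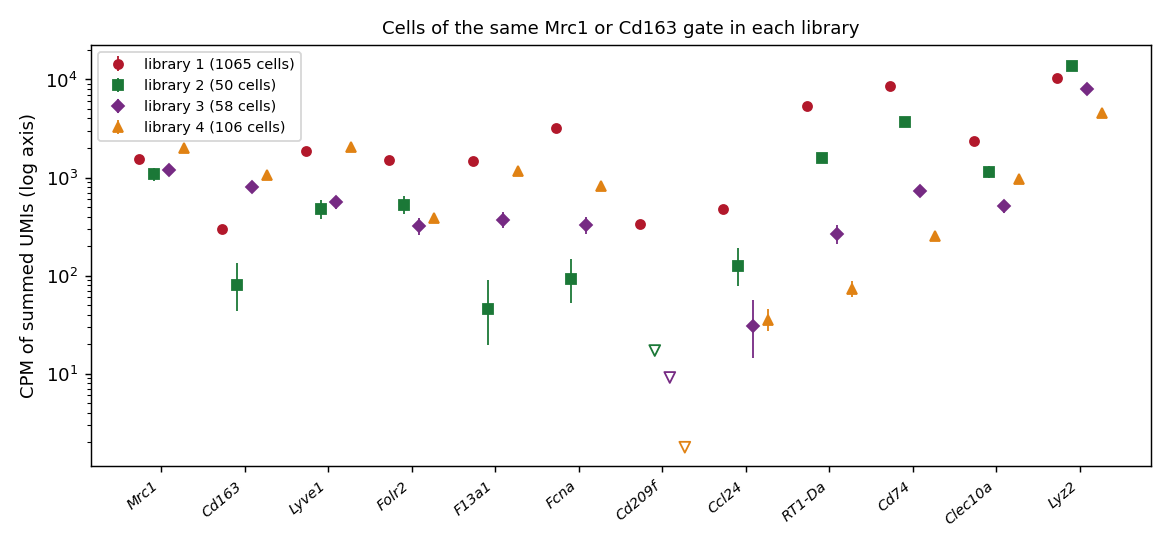
CPM of summed UMIs (log axis) for selected genes in cells of the same gate in libraries 1, 2, 3 and 4 (points, with 95% counting intervals as bars). Open triangles mark genes with 0 to 2 UMIs, drawn at the level of 3 UMIs. Cd209f and RT1-Da stand highest in library 1, and Cd163 highest in library 4 (1055 CPM). Mrc1 and Cd163 are genes of the gate itself.

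Library 2 was the one other library with at least 20 cells on each side, 50 Mrc1 or Cd163 macrophages and 91 Trem2 or Gdf15 macrophages. Of 2508 genes measured there, 18 (0.718%) were 2-fold or more higher and 209 (8.33%) were 2-fold or more lower in the Mrc1 or Cd163 macrophages, with a median of -0.10. There 1 UMI was 5.74 CPM in the Mrc1 or Cd163 macrophages and 2.63 CPM in the Trem2 or Gdf15 macrophages. The minimum of 20 UMIs was thus reached at fewer CPM in the Trem2 or Gdf15 macrophages, the reverse of library 1. The part of this in the counts was not tested. Of 15 measured resident macrophage genes, 1 was 2-fold or more higher, Ccl24, at 126 CPM in the Mrc1 or Cd163 macrophages and 55.2 CPM in the Trem2 or Gdf15 macrophages, and none was 2-fold or more lower. Lyve1 stood at 477 CPM in the Mrc1 or Cd163 macrophages and 476 CPM in the Trem2 or Gdf15 macrophages of library 2, and Folr2 at 523 CPM in the Mrc1 or Cd163 macrophages and 557 CPM in the Trem2 or Gdf15 macrophages. Fcna stood at 91.9 CPM in the Mrc1 or Cd163 macrophages and 181 CPM in the Trem2 or Gdf15 macrophages of library 2, a log2 ratio of -0.98 (-1.87 to -0.18), the opposite sign to library 1. Hmox1 stood at 551 CPM in the Mrc1 or Cd163 macrophages and 239 CPM in the Trem2 or Gdf15 macrophages, a log2 ratio of 1.20 (0.77 to 1.63), also the opposite sign. RT1-Da stood at 1596 CPM in the Mrc1 or Cd163 macrophages and 2974 CPM in the Trem2 or Gdf15 macrophages, a log2 ratio of -0.90 (-1.09 to -0.71), beside -0.85 in library 1. Of the 15 lowest genes of library 1, 6 were measured in library 2. Clec7a (-1.28), Slc2a1 (-2.36) and Fcgr3a (-0.14) were below 0 there, and Basp1 (0.32), Gngt2 (0.31) and Cxcl16 (0.0047) were above 0. Of the 15 highest genes, 2 were measured, Fcna and Rarres1 (-0.14), and both were below 0. The 4 erythroid markers, haemoglobin genes among them, also differed there: they summed to 65637 CPM in the Mrc1 or Cd163 macrophages and 18313 CPM in the Trem2 or Gdf15 macrophages of library 2, with a median cell at 0 on each side. The highest cell had 6062 such UMIs per 10000 in the Mrc1 or Cd163 macrophages and 4853 in the Trem2 or Gdf15 macrophages. Their part in the ratios of library 2 was not tested. The difference between the libraries in these ratios was not tested, since each library was 1 sample.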

How the data were processed

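Single cells of 4 libraries were sequenced on a droplet platform with the 3' kit version 3, per the labels' protocols. The authors deposited 1 matrix of UMI counts (25399 gene rows, 41444 barcodes), made with Cell Ranger 3.1.0 per the file headers. CASAVA 1.8, Seurat and the build Rnor_6.0 stand in the submitters' processing notes with no role given. Rows with the same symbol were summed, giving 25267 symbols. Barcodes were grouped by their suffix, and no suffix was assigned to a labelled group. UMIs were summed over the cells of a side and scaled to 1000000 (CPM), with exact Poisson intervals. Ratios used a floor of 3 UMIs per side and an exact binomial interval, all covering counting error only. The C1q genes, Mrc1, Cd163, Trem2 and Gdf15 and mitochondrial genes were left out of counts of genes. Shares of cells with a UMI were taken after thinning cells to 2000 UMIs. Cells were not replicates, so no test was run. Doublets were called with Scrublet in scanpy 1.11.5 as an alternative only.

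The members and the 24 gene lists (493 genes, 474 found) were chosen with earlier results of these data known. Genes were named by rule: the 15 highest and 15 lowest ratios among genes with at least 100 UMIs in at least 10% of the cells of the higher side, without ribosomal genes and IDs with no symbol, and up to 4 genes a list under the same minimum. Named beside that rule, after their values were seen, were Lyve1, Folr2, F13a1, Siglec1, Ltc4s, Pf4, Cd74, RT1-Bb, RT1-DOb, Hmox1, Apoe, C3ar1, Ccl2, Ccl5, Ccl11, Cxcl2, Il1b, Il10, Csf1, Il1r2, Csf2rb, Ifit3, Nfkb1, Maf, Slc16a3, Pkm, Slc7a5, Slc7a11, Pdgfc, Vegfb, Gpr34, P2ry13, Cadm1, Cenpf, Emilin2, Adam9, Bcl2a1, Napsa and Runx3. The ratio was checked on simulated counts. Promoters came from RefSeq on GRCr8. Tools were scipy 1.17.1, pandas 2.3.3, numpy 2.4.6 and matplotlib 3.10.9 under Python 3.11.15.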

Additional observations from a re-analysis of the deposited data

How the results depend on the processing

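Alternatives were 16 planned settings and 3 added after seeing the data (fibroblast UMIs at 100 per 10000 removed, and class II at 100 or more, or under 100, per 10000). No paired analysis was possible because each group had 1 library. Members were 1065 cells, but 571 without cells at 20 or more fibroblast UMIs per 10000 and 182 with no UMI of the other pair. The next counts of genes are not shares, since the number of genes measured changes with the cells and the minimum used. Genes 2-fold or more higher were 543, against 818 without cells at 20 fibroblast UMIs, 180 with a minimum of 100 UMIs, 936 with Gdf15 alone defining the other side and 139 in class II-rich cells. Genes 2-fold or more lower were 123, against 74 with a mitochondrial limit of 10%, 186 with 4 defining UMIs, 226 without Scrublet doublets, 224 without cells at 20 fibroblast UMIs, 77 with cells thinned, 427 with a minimum of 5 UMIs, 36 with a minimum of 100, 932 with members chosen by Cd163 alone (159 cells), 255 with Gdf15 alone and 295 in cells poor in class II. The class II median was -0.52 with the 10% limit, -1.14 with 4 defining UMIs, -0.54 with no UMI of the other pair, -2.56 with Cd163 alone, 0.064 in class II-rich cells and -1.15 in the others. In class II-rich cells the resident median was 0.50 and the heat shock median -0.061. With no UMI of the other pair, the medians were 0.29 for receptors, 0.46 for growth factors and -0.63 for matrix proteases, and Cxcl3 turned to 0.10. The monocyte median was 0.26 without cells at 20 and without cells at 100 fibroblast UMIs. With Cd163 alone, medians were 1.72 (resident), -0.77 (lipid-associated), -1.30 (cytokines), -0.64 (receptors), 0.55 (lysosomal), -0.65 (growth factors), 1.49 (interferon-stimulated), -0.43 (glycolysis), -0.86 (microglia) and -0.56 (matrix proteases). Of 56 named genes past 2-fold, 39 remained so with the 10% limit, 39 with Trem2 alone, 42 with cells thinned and 54 with ratios centred on the median gene. In class II-rich cells 15 of the 48 measured remained so, and 45 of 55 in the others. Where a value changed beyond what a smaller set of cells or genes gives, the cause was not tested. Depth limited genes under 20 UMIs on both sides, which were not measured, and every interval covers counting error in 1 library.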

Other observations

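Erbb3, the neuregulin receptor, was in 201 of the 1065 members (18.9%). In these 201 cells the other 7 Schwann cell markers summed to 59.1 CPM, against 118 CPM in the 864 members without an Erbb3 UMI. No other Schwann cell marker had a UMI in 180 of the 201 (89.6%), against 737 of the 864 (85.3%), and Sox10 had 0 UMIs in the members with Erbb3 and 4 in the members without it. The class II median was 1.69 UMIs per 10000 in members with Erbb3 and 103 in members without it, and the median depth was 4939 UMIs in members with Erbb3 and 3600 in members without it. The comparison was made after the values were seen.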
